A study of Mus musculus with 6 samples.

Results

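The intercalated disc is the end-to-end contact between cardiomyocytes, and 10 of its genes were followed in hearts of mice fed either a diet rich in fat (HFD) or ordinary chow (NC). They were chosen by name, as genes of the gap junction (Gja1 and Gja5), of the desmosome (Dsp, Pkp2, Jup, Dsg2 and Dsc2), of the adherens junction (Cdh2 and Ctnna3) and of the scaffold beside both (Tjp1). All 10 were among the 23808 genes of the table, and all 10 were among the 11456 genes that averaged 1 FPKM or more and were tested. The HFD group consisted of 3 libraries from hearts of wild-type female mice given that diet between 4 and 12 weeks of age. The NC group consisted of 3 libraries from hearts of wild-type female mice given normal chow over the same weeks. The strain is unnamed in the labels. They are also silent on whether each library is a different animal, and the p-values rest on the spread among these libraries alone, which may be technical. The comparison asks whether junction transcripts differ between the diets.

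Cardiomyocytes pull on each other through the disc and pass current through it. Desmosomes tie the desmin filaments of neighbouring cells together through desmosomal cadherins, plakoglobin, plakophilin and desmoplakin, and adherens junctions tie the actin filaments together through N-cadherin and the catenins. Gap junctions are channels made of connexins that let the action potential spread from cell to cell. Inherited loss of desmosomal proteins causes arrhythmogenic cardiomyopathy in humans.

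Values were FPKM, fragment counts scaled for gene length and library size, so levels could be set roughly side by side between genes. Comparisons between libraries depend on the scaling, and 5 other scalings were tried. Summed FPKM ran from 576334 in HFD 1 to 739406 in NC 1, and read depth is unknown. HFD 1 stood apart, since it listed 5 genes at 0 that had 2515.9 FPKM or more in each other library, 4 of them mitochondrially encoded and the other the predicted gene Gm28661. The heart label fits the cardiomyocyte markers, all 12 of which were tested, with a mean log2(FPKM + 1) between 9.45 and 9.92 in every library. The atrial markers instead varied widely within each diet, from a mean of 3.41 in NC 2 to 7.38 in NC 3.

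None of the 10 genes passed the test over all genes. Fold changes are given on the log2(FPKM + 1) scale as HFD minus NC, with limma's moderated test and Benjamini-Hochberg adjustment at 0.05. Among all tested genes, 0 of 11456 (0.0%) passed, against 415 (3.62%) at an unadjusted p of 0.05, and no other tool was run on these values. The adjusted p of every one of the 10 genes was 1. Unadjusted, none of the 10 was under 0.05, and the smallest was that of Tjp1, the 473rd smallest in the table. On this scale 4 of the 10 had a value above 0 and 6 below, with a median of −0.05, against a median of −0.02 and 46.9% above 0 among all tested genes. Tjp1 was the only one of the 10 in which the libraries of the diets did not overlap, and 8.13% of all tested genes showed no overlap, 3.25% with HFD above and 4.88% with HFD below.

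**Figure D1:**
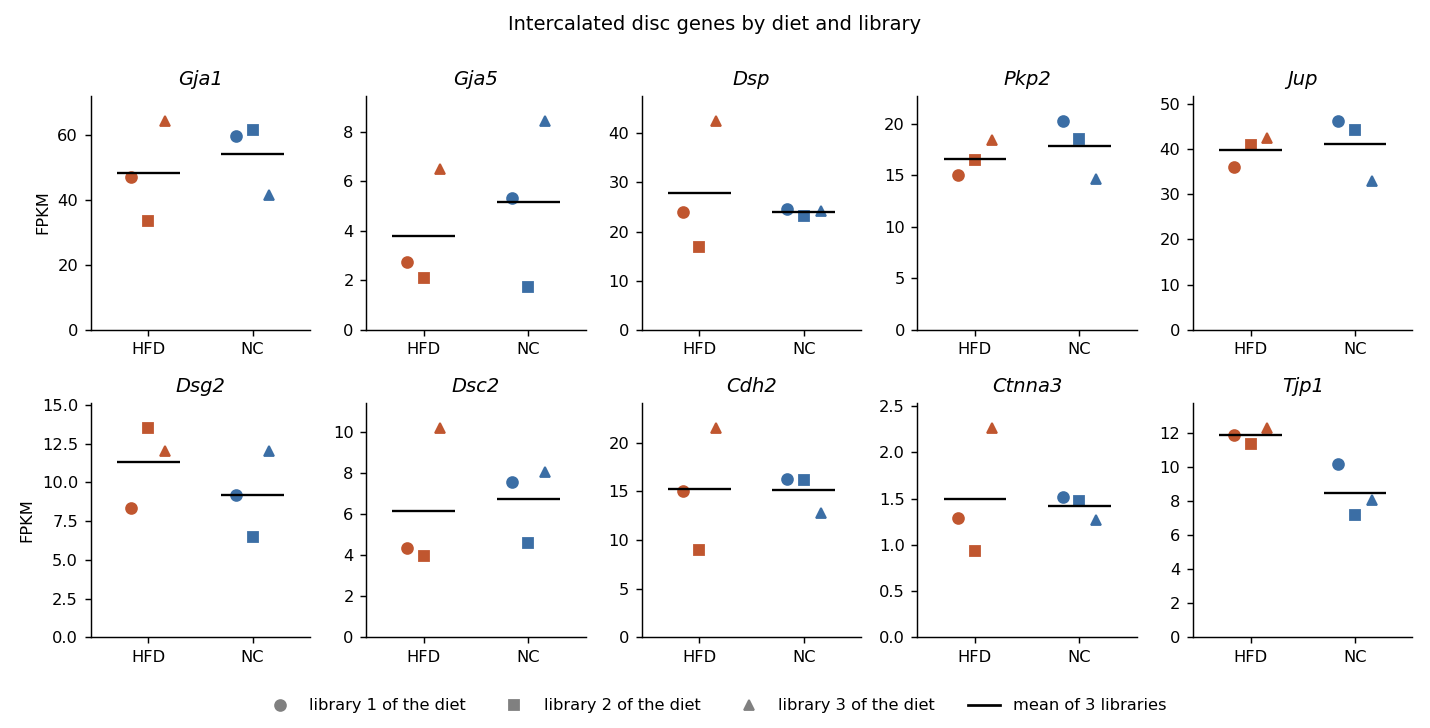
FPKM of each of the 10 disc genes (vertical axis, from 0) in the 3 HFD and the 3 NC libraries, with a black line at the mean of each diet. In Tjp1 the HFD libraries, at 11.4 to 12.3 FPKM, lie above the NC libraries, at 7.18 to 10.2 FPKM, and in the other 9 panels the diets overlap.

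The upstream sequences of Gja1, Gja5 and Tjp1 are shown because the connexins are the channel genes of the disc, with very different levels, and Tjp1 is the gene whose diets did not overlap. Each runs 5′ to 3′ over the 250 bases before a start annotated by RefSeq on GRCm38.p6, and capitals mark matches to the motifs searched. The Gja1 stretch is chr10:56377050-56377299 on the plus strand, the Gja5 stretch is chr3:97032152-97032401 on the plus strand and the Tjp1 stretch is chr7:65371245-65371494 on the minus strand. By the GENCODE coordinates given below, the Gja1 stretch lies before the gene. The Gja5 and Tjp1 stretches lie inside the span of their genes, before an internal start.
Gja1: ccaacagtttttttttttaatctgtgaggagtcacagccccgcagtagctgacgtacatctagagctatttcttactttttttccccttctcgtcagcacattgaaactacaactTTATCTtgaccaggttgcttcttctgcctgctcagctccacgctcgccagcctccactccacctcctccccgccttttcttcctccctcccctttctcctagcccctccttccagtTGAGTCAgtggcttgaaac
Gja5: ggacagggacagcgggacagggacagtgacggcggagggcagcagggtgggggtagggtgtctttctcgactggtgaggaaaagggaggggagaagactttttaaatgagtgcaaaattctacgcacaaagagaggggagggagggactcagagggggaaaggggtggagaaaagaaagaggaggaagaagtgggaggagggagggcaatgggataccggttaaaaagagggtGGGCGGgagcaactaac
Tjp1: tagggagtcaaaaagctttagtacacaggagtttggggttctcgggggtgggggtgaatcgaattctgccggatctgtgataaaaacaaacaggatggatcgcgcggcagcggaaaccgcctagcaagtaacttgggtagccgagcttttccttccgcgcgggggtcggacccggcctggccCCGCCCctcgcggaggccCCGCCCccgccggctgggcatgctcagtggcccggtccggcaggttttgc

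Motifs were searched on both strands, and none of the matches in the members overlapped another. The AP-1 site was searched as TGANTCA and matched in the Gja1 stretch from 19 to 13 bases before the start. It stood in the stretches of 1 of the 6 disc genes that matched the promoter table (8 stretches, 3 of them of Ctnna3) and in 6.75% of the 32851 stretches of the table. The GATA motif, searched as AGATAA, matched in Gja1 from 135 to 130 bases before the start, on the opposite strand, and in 9.99% of all stretches. The GC box was searched as GGGCGG and matched once in Gja5 and in 2 places in Tjp1, both of these on the opposite strand. It was present in 5 of the 6 genes (Gja5, Dsp, Jup, Ctnna3 and Tjp1) and in 32.7% of all stretches. In Ctnna3 only 1 of the 3 stretches held it, and a gene with 3 stretches has more chances of a match than 1 stretch. The TATA box was searched as TATAAA and matched in 1 stretch of Ctnna3 and in 12.4% of all stretches. The T-box half-site was searched as GTGTGA and matched in 0 of the 6 genes and in 12.3% of all stretches. The NKX2-5 site was searched as TNAAGTG and matched in 0 of the 6 genes and in 10.1% of all stretches. These matches describe letters in the windows and say nothing of binding.

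Gja1, the connexin gene of the working ventricle, had the highest mean level of the 10 genes. It was at 47.1, 33.6 and 64.4 FPKM in libraries HFD 1, HFD 2 and HFD 3, against 59.7, 61.5 and 41.5 FPKM in NC 1, NC 2 and NC 3. The HFD values enclosed those of NC, with HFD 2 lowest and HFD 3 highest of the 6. Its log2 fold change was −0.19 (SE 0.26, 95% interval −0.76 to 0.38, limma adjusted p = 1), and it was 0.04 without HFD 2. Gja1, like the other 9 a protein-coding gene, occupies chr10:56377330-56402513 of mm10 on the plus strand.

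Gja5 encodes the connexin of the atria, the fast conduction system and arterial endothelium. It was at 2.72, 2.07 and 6.51 FPKM in libraries HFD 1, HFD 2 and HFD 3, against 5.32, 1.73 and 8.45 FPKM in NC 1, NC 2 and NC 3. The libraries numbered 3 were high in both diets and those numbered 2 low in both, so that the diets overlapped. Its log2 fold change of −0.31 had the widest interval of the 10 genes, from −1.25 to 0.63 (SE 0.43, limma adjusted p = 1), and was 0.09 without NC 3, −0.69 without HFD 3 and −0.81 without NC 2. Gja5 occupies chr3:96904693-97077416 on the plus strand in the GENCODE annotation, with exons that overlap those of Gpr89 on the opposite strand. Gpr89 was at 2.57, 3.06 and 4.14 FPKM on HFD and 4.06, 2.47 and 4.27 FPKM on NC. None of the sources used here names the strand setting of the counting, and reads from exons that both genes share cannot be told apart.

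Gja5 followed the atrial markers across the libraries more closely than any other of the 10 genes did. Of 14 markers 12 were tested, and Fam163a and Dhrs9 had means under 1 FPKM. Their mean log2(FPKM + 1) was 4.52, 3.47 and 6.77 in HFD 1, HFD 2 and HFD 3, against 5.86, 3.41 and 7.38 in NC 1, NC 2 and NC 3, and their summed level was 539 to 7591 FPKM on HFD and 549 to 14536 FPKM on NC. Libraries ranked the same way by Gja5 and by this mean. Over the 6 libraries Pearson's r was 0.994 (exact permutation p = 0.00139, adjusted p = 0.0139 over the 10 genes) and Spearman's rho was 1 (exact permutation p = 0.00278, the smallest possible, adjusted p = 0.0278). Without NC 2 and NC 3, the libraries farthest from the median, r was 0.989, and for deviations from the mean of each diet r was 0.994. Those deviations ranked less closely, with a rho of 0.943, while the deviations of Dsc2 had a rho of 1 (exact permutation adjusted p = 0.139 for both). Among the 4 libraries left without NC 2 and NC 3, Gja1, Dsp, Dsc2, Cdh2 and Ctnna3 also ranked as the markers did, each with a rho of 1. Over all 6 libraries the next closest gene was Dsc2, with an r of 0.916 (exact permutation p = 0.0417, adjusted p = 0.208) and a rho of 0.771 (adjusted p = 0.343). Gja1 had an r of 0.211 (exact permutation p = 0.69, adjusted p = 0.863). The amount of atrial tissue in each library is not labelled, and fewer cells of a type and less RNA per cell cannot be told apart in bulk hearts.

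**Figure D2:**
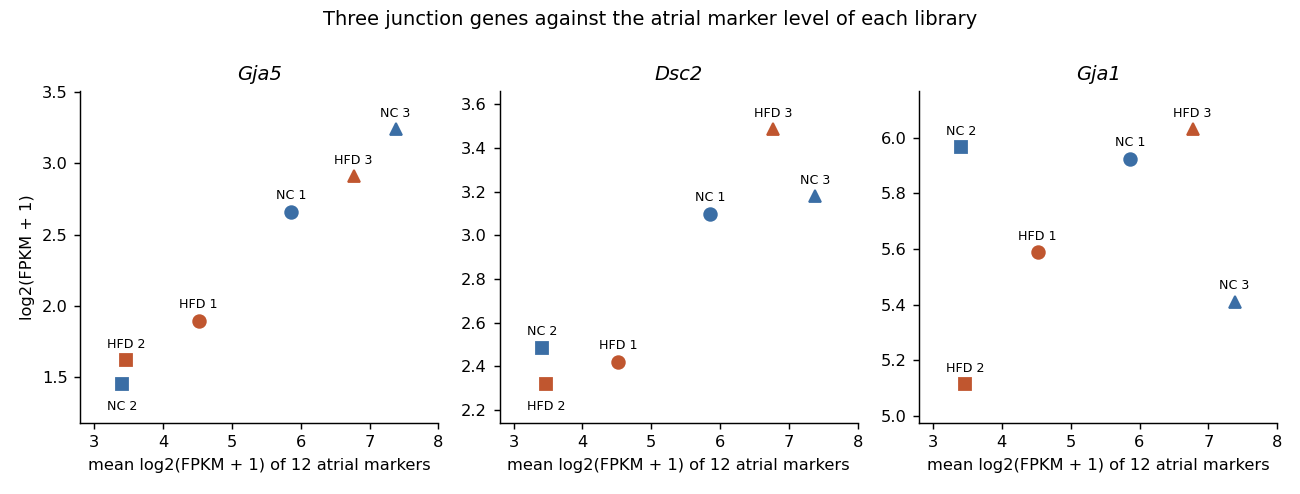
log2(FPKM + 1) of Gja5, Dsc2 and Gja1 (vertical axes, which do not start at 0) against the mean log2(FPKM + 1) of 12 atrial markers in each of the 6 libraries, named beside the points. Gja5 climbs with the marker mean from NC 2, at 3.41, to NC 3, at 7.38, while Gja1 is high in NC 2 and low in NC 3.

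Other genes share the Gja5 pattern. The 5 genes with the highest Pearson correlation with Gja5 over the 6 libraries, predicted models left out, were the heparan sulfate proteoglycan gene Sdc1 (r = 0.9975), the fibronectin gene Fn1 (0.9932), the atrial marker Stard10 (0.9929), Cyb561a3 (0.9926) and the G protein subunit gene Gng2 (0.9921). Of all tested genes 130 (1.13%) had an r above 0.95, and of the 12 tested atrial markers 8 (66.7%) did. Of 10 conduction system markers 6 were tested, and Hcn4, Isl1 and Shox2 were among those with means under 1 FPKM. The mean log2(FPKM + 1) of the 6 was 2.04, 2.43 and 2.79 in HFD 1, HFD 2 and HFD 3, against 2.60, 2.43 and 2.83 in NC 1, NC 2 and NC 3, with a summed level of 28.5 to 65.2 FPKM on HFD and 56.3 to 74.9 FPKM on NC. Among them Cntn2, a cell adhesion gene of the conduction system, was at 0.389, 0.05 and 1.44 FPKM on HFD and 1.90, 0.556 and 2.07 FPKM on NC. Etv1, a transcription factor gene of fast conducting cells, was at 2.21, 1.35 and 3.82 FPKM on HFD and 2.66, 1.92 and 3.58 FPKM on NC. Like Gja5, both were highest in library 3 and lowest in library 2 of each diet. The other tested conduction markers did not share this, and Irx3 was highest in NC 2, at 5.73 FPKM. The 8 arterial endothelial markers, all tested, had a mean log2(FPKM + 1) of 2.91 to 3.06 on HFD and 2.65 to 2.89 on NC, and a summed level of 57.6 to 83.6 FPKM on HFD and 54 to 58.9 FPKM on NC. Single markers differed among themselves, and Bmx, a kinase gene of arterial endothelium, was at 2.39, 1.21 and 3.48 FPKM on HFD and 1.58, 0.878 and 3.57 FPKM on NC, with the same highest and lowest library as Gja5. The other arterial markers did not share both, and Dll4 was highest in NC 2, at 9.54 FPKM. Cntn2, Etv1 and Bmx were picked after their values were seen, and the part of conduction and arterial cells in the Gja5 values was not tested.

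Gja1 made up 59.7 to 72.2% of the summed FPKM of Gja1, Gja5, Gjc1, Gja4 and Gja3 on HFD and 59.3 to 77.1% on NC. The Gja5 share was 4.16, 3.68 and 7.2% in the HFD libraries and 6.09, 2.16 and 12.1% in the NC libraries. Gja1 was accordingly 17.4, 16.2 and 9.89 times as high as Gja5 in HFD 1, HFD 2 and HFD 3, against 11.2, 35.6 and 4.91 times in NC 1, NC 2 and NC 3. The wider spread of this ratio lay on NC, and the diets overlapped.

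Of 21 other connexin and pannexin genes 16 were in the table and 4 had a mean of at least 1 FPKM. Gjc1, a connexin of the conduction system and the embryonic heart, was at 6.45 to 8.52 FPKM on HFD and 6.72 to 9.41 FPKM on NC (log2 fold change −0.08, SE 0.22). Gja4, an endothelial connexin, was at 8.67 to 10.9 FPKM on HFD and 8.18 to 11.4 FPKM on NC (−0.09, SE 0.22). Gja3, best known from the lens, was at 0.299, 1.15 and 3.48 FPKM on HFD and 1.64, 0.739 and 2.42 FPKM on NC (−0.11, SE 0.40). The pannexin gene Panx1 was at 0.704 to 1.70 FPKM on HFD and 0.888 to 1.56 FPKM on NC (−0.03, SE 0.24). The diets overlapped in all 4, and the sign of each turned under another scaling or without 1 library. The other 12 genes had means under 1 FPKM, among them Gjb1, Gjb2, Gjc3, Gjd3, Gja6, Gja10, Gjb5, Panx2 and Panx3.

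Tjp1 encodes the zonula occludens protein that binds the tail of the Gja1 connexin at the rim of gap junctions and also scaffolds tight junctions of endothelium. It was at 11.9, 11.4 and 12.3 FPKM in libraries HFD 1, HFD 2 and HFD 3, against 10.2, 7.18 and 8.09 FPKM in NC 1, NC 2 and NC 3. All HFD libraries lay above all NC libraries, and the HFD values lay closer together than the NC values. The means were 11.9 ± 0.419 FPKM on HFD and 8.51 ± 1.57 FPKM on NC (SD, n = 3 each). Tjp1 had a log2 fold change of 0.45 (SE 0.21, 95% interval −0.02 to 0.92, limma adjusted p = 1), so the difference did not pass. It was 0.35 to 0.58 when 1 library was left out and 0.465 to 0.587 under 5 other scalings. Tjp1 occupies chr7:65296165-65527781 on the minus strand.

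The 10 endothelial markers are set beside Tjp1, and 0 of them passed the test. All 10 had a value above 0, with a median log2 fold change of 0.14, and their mean log2(FPKM + 1) was 5.40, 5.55 and 5.34 in HFD 1, HFD 2 and HFD 3, against 5.46, 5.12 and 5.03 in NC 1, NC 2 and NC 3. Their summed level was 500 to 718 FPKM on HFD and 475 to 537 FPKM on NC. Flt1, a VEGF receptor, had the largest value among them (log2 fold change 0.67) and was the only one whose HFD libraries lay above the NC libraries. Outside this list, the endothelial genes Cldn5 and Gja4 were below 0, at −0.52 and −0.09, and 6 of the 8 arterial endothelial markers were above 0. The part of endothelial cells in the Tjp1 values was not tested. The related gene Tjp3 was listed at 0 in 5 of the libraries and at 0.0953 FPKM in HFD 3.

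Desmosomal transcripts were present at unequal levels, in the order Jup, Dsp, Pkp2, Dsg2 and Dsc2 by mean FPKM. Dsp encodes desmoplakin, which links the desmosomal plaque to desmin. It was at 23.9, 16.8 and 42.6 FPKM in libraries HFD 1, HFD 2 and HFD 3, against 24.5, 23.1 and 24.2 FPKM in NC 1, NC 2 and NC 3. The NC libraries were nearly equal, whereas HFD 2 was the lowest and HFD 3 the highest of the 6. The means were 27.8 ± 13.3 FPKM on HFD and 23.9 ± 0.723 FPKM on NC (SD, n = 3 each), with a log2 fold change of 0.11 (SE 0.29, 95% interval −0.52 to 0.74, limma adjusted p = 1) that was −0.24 without HFD 3. Dsp occupies chr13:38151294-38198577 on the plus strand. Its exons overlap Gm10129, a gene model on the opposite strand whose mean was 0.246 FPKM.

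Jup encodes plakoglobin, an armadillo protein shared by desmosomes and adherens junctions. It was at 36.1, 40.9 and 42.4 FPKM in libraries HFD 1, HFD 2 and HFD 3, against 46.3, 44.2 and 32.9 FPKM in NC 1, NC 2 and NC 3. All HFD values lay inside the range of the NC values. Jup had a log2 fold change of −0.03 (SE 0.21, 95% interval −0.49 to 0.42, limma adjusted p = 1), and it turned above 0 under 3 of 5 other scalings and without NC 1, NC 2 or HFD 1. Jup occupies chr11:100368958-100397763 on the minus strand.

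Pkp2 encodes plakophilin, the armadillo protein that gathers desmoplakin and plakoglobin at the plaque. It was at 15, 16.5 and 18.4 FPKM in libraries HFD 1, HFD 2 and HFD 3, against 20.3, 18.5 and 14.6 FPKM in NC 1, NC 2 and NC 3. As in Jup, NC 1 was the highest and NC 3 the lowest library, and the HFD values lay inside the NC range. Pkp2 had a log2 fold change of −0.09 (SE 0.21, 95% interval −0.55 to 0.38, limma adjusted p = 1), and it was 0.008 without NC 1. Without NC 3 the HFD libraries lay below the NC libraries in both Pkp2 and Jup, but diets separate more readily by chance with 1 library fewer. Pkp2 occupies chr16:16213318-16272712 on the plus strand.

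Dsg2 and Dsc2 encode the desmosomal cadherins of the heart, desmoglein and desmocollin, and both lie on chromosome 18, as does Cdh2. Dsg2 was at 8.34, 13.5 and 12.0 FPKM in libraries HFD 1, HFD 2 and HFD 3, against 9.16, 6.47 and 12.0 FPKM in NC 1, NC 2 and NC 3. Its log2 fold change of 0.28 (SE 0.26, 95% interval −0.29 to 0.85, limma adjusted p = 1) stayed above 0 in every setting tried, from 0.07 upward, but the diets overlapped. Without HFD 1 the other HFD libraries lay above the NC libraries, though HFD 3 and NC 3 both round to 12.0 FPKM. Dsc2 was at 4.35, 3.98 and 10.2 FPKM in libraries HFD 1, HFD 2 and HFD 3, against 7.56, 4.59 and 8.05 FPKM in NC 1, NC 2 and NC 3. Its log2 fold change was −0.18 (SE 0.32, 95% interval −0.88 to 0.52, limma adjusted p = 1) and 0.03 without HFD 2. Without HFD 3 the HFD libraries lay below the NC libraries. For both genes, separation by chance is more likely with 1 library fewer. Both cadherins were low in NC 2, but they differed in HFD 2, where Dsg2 was at its highest and Dsc2 at its lowest of the 6 libraries. Dsg2 was 3.38 times as high as Dsc2 in HFD 2, against 1.21 to 1.49 times in the NC libraries. In HFD 1 the ratio was 1.92 and in HFD 3 it was below that of every NC library, so the diets overlapped.

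The 5 desmosomal genes together summed to 87.8, 91.6 and 126 FPKM in libraries HFD 1, HFD 2 and HFD 3, against 108, 96.9 and 91.8 FPKM in NC 1, NC 2 and NC 3. HFD 3 exceeded every other library and HFD 1 was the lowest. The Dsp share of this sum was 27.3, 18.4 and 33.9% on HFD and 22.7, 23.9 and 26.4% on NC. The Jup share was 41.2, 44.6 and 33.8% on HFD and 42.9, 45.6 and 35.8% on NC. In HFD 3 the Dsp and Jup shares were nearly equal, and in the other 5 libraries Jup had the larger share.

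Several other desmosome genes were close to 0 in these hearts, while Pkp4, Ppl and Perp averaged 1 FPKM or more. Of 13 other desmosome genes 10 were in the table. Dsg1b was listed at 0 in all libraries, Pkp1, Pkp3, Dsc3, Dsg1a, Dsg3 and Evpl had means under 1 FPKM, and the keratin markers Krt8, Krt18, Krt19 and Krt14 had 6-library means under 1 FPKM as well. The highest keratin value was that of Krt19, at 1.21 FPKM in HFD 3 and 2.74 FPKM in NC 3. The 3 tested genes were Pkp4, Ppl and Perp, with a median log2 fold change of 0.60. Pkp4, an armadillo protein found in both kinds of adhering junction, was at 31.4, 19.2 and 31.4 FPKM in libraries HFD 1, HFD 2 and HFD 3, against 22.6, 12.8 and 17.6 FPKM in NC 1, NC 2 and NC 3. The diets overlapped through HFD 2 and NC 1, and the log2 fold change was 0.60 (SE 0.27, limma adjusted p = 1). Ppl, the plakin gene periplakin, was at 1.52, 3.25 and 2.75 FPKM on HFD and 1.40, 0.415 and 2.33 FPKM on NC (0.61, SE 0.32). Mesothelial markers, which can accompany epithelial junction genes, had 3 of 9 members tested, all 3 above 0, with a summed level of 6.17 to 12.8 FPKM on HFD and 4.06 to 9.69 FPKM on NC. Their part in the desmosomal values was not tested. Perp, a tetraspan protein of desmosomes, was at 25.9 to 47.6 FPKM on HFD and 39.1 to 44.3 FPKM on NC (−0.30, SE 0.24).

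**Figure D3:**
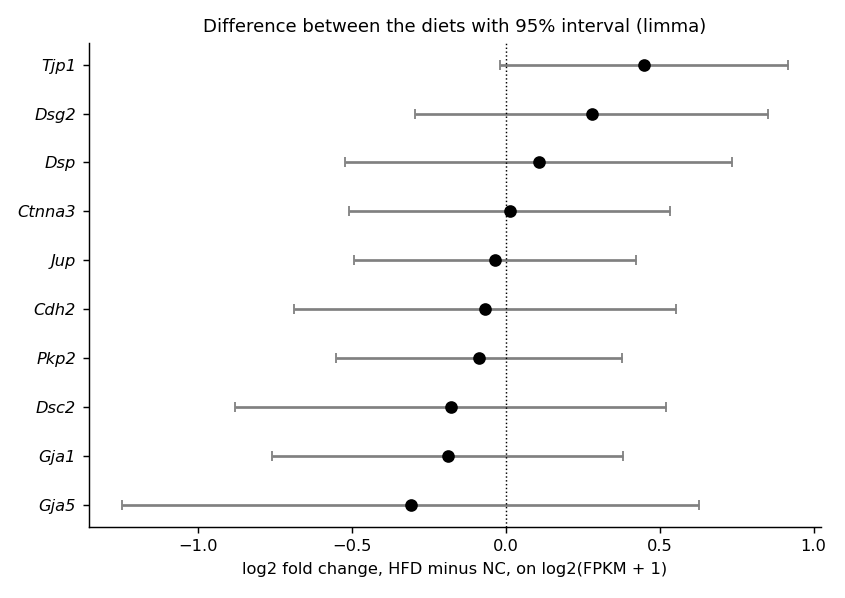
log2 fold change of each of the 10 disc genes, HFD minus NC on log2(FPKM + 1), with the 95% interval from limma. All intervals include 0, and that of Tjp1, from −0.02 to 0.92, includes it by the least.

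Cdh2 encodes N-cadherin, the calcium-dependent adhesion receptor of the adherens junction. It was at 15, 8.93 and 21.5 FPKM in libraries HFD 1, HFD 2 and HFD 3, against 16.3, 16.2 and 12.8 FPKM in NC 1, NC 2 and NC 3. The HFD values again enclosed the NC values, with nearly equal means of 15.2 ± 6.31 FPKM on HFD and 15.1 ± 2.03 FPKM on NC (SD, n = 3 each). Cdh2 had a log2 fold change of −0.07 (SE 0.28, 95% interval −0.69 to 0.55, limma adjusted p = 1). It was 0.24 without HFD 2 and above 0 under 2 of 5 other scalings.

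Ctnna3 encodes the alpha catenin of heart and testis, which binds plakophilin as well as actin. It was the lowest of the 10 genes, at 1.29, 0.935 and 2.26 FPKM in libraries HFD 1, HFD 2 and HFD 3, against 1.52, 1.47 and 1.27 FPKM in NC 1, NC 2 and NC 3. The pattern was that of Cdh2, with HFD 2 lowest and HFD 3 highest. The log2 fold change was 0.01 (SE 0.24, 95% interval −0.51 to 0.54, limma adjusted p = 1), and it was −0.20 without HFD 3 and −0.03 without NC 3. Ctnna1, the alpha catenin of most tissues, was 43.6, 46.7 and 33.5 times as high as Ctnna3 in HFD 1, HFD 2 and HFD 3, against 43.6, 40.3 and 46.3 times in NC 1, NC 2 and NC 3. Ctnna3 occupies chr10:63430098-65003667 on the plus strand, a span of 1573570 bases.

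Of 21 other genes of the adherens junction and the mixed junction of the heart, 20 were tested, 9 above and 11 below 0, with a median log2 fold change of −0.08 and 0 past the adjusted threshold. Those with the smallest p were Ctnnd1, Arvcf, Zyx and Lmo7. Ctnnd1, the catenin that holds classical cadherins at the membrane, was at 10.9, 9.70 and 9.81 FPKM in libraries HFD 1, HFD 2 and HFD 3, against 8.37, 5.72 and 5.12 FPKM in NC 1, NC 2 and NC 3. All HFD values were above all NC values (log2 fold change 0.61, SE 0.23, limma adjusted p = 1). Arvcf, a catenin of the same subfamily, was at 1.06, 1.63 and 1.63 FPKM on HFD, below 2.71, 3.06 and 1.92 FPKM on NC (−0.54, SE 0.23, limma adjusted p = 1). Both kept their sign in every scaling and with each library left out, in opposite directions. The log2 fold change was −0.32 (SE 0.29) for the zyxin gene Zyx and 0.23 (SE 0.21) for Lmo7. Ctnnb1, the beta catenin gene, was at 75.5 to 99.3 FPKM on HFD and 64.5 to 94.1 FPKM on NC (0.23, SE 0.22).

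Of 14 tight junction genes and partners of the gap junction 11 were tested, 4 above and 7 below 0, with a median of −0.07. Cav3, which shapes the caveolae of muscle cells, was at 28.7, 35.1 and 31.4 FPKM in libraries HFD 1, HFD 2 and HFD 3, against 47.0, 42.2 and 47.0 FPKM in NC 1, NC 2 and NC 3. All HFD values were below all NC values (log2 fold change −0.51, SE 0.20, limma adjusted p = 1). Cldn5, the claudin of endothelium, was at 13.5 to 34.2 FPKM on HFD and 26.8 to 37.5 FPKM on NC (−0.52, SE 0.30). The ubiquitin ligase gene Nedd4, whose product acts on the Gja1 connexin, had a log2 fold change of 0.25 (SE 0.24), and the adhesion receptor gene Cxadr one of −0.16 (SE 0.22).

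All 14 genes of disc ion channels and their anchors were tested, 8 above and 6 below 0, with a median of 0.05. The membrane protein gene Popdc2 was at 80.2, 73.6 and 108 FPKM on HFD and 113, 107 and 127 FPKM on NC (−0.42, SE 0.21), overlapping only through HFD 3 and NC 2. The log2 fold change was 0.38 (SE 0.27) for the beta subunit gene Scn4b and 0.25 (SE 0.26) for the ankyrin gene Ank2.

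Over these lists together 52 of 75 genes in the table were tested, 23 above and 29 below 0, with a median of −0.07. With each library rescaled to the same sum, 32 were above and 20 below 0 (median 0.052). Relative to the cardiomyocyte markers 30 were above and 22 below (median 0.035). The median of all tested genes was 0.092 and 0.083 in these settings. In 1 of the 52, Ctnnd1, the HFD libraries lay above, and in 3, among them Arvcf and Cav3, below the NC libraries. Among all tested genes these shares were 3.25% above and 4.88% below, so the counts are near those of all genes. At an unadjusted p of 0.05 there were 2 with higher and 3 with lower values on HFD, against 1.32% and 2.3% of all tested genes. Of 9 other genes linked to arrhythmogenic cardiomyopathy 5 were above and 4 below 0 (median 0.01), and the diets overlapped in each. The 4 with the smallest p were the co-chaperone gene Bag3 (log2 fold change 0.25), the splicing factor gene Rbm20 (0.21), the lamin gene Lmna (−0.17) and the calcium release channel gene Ryr2 (0.18).

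**Figure D4:**
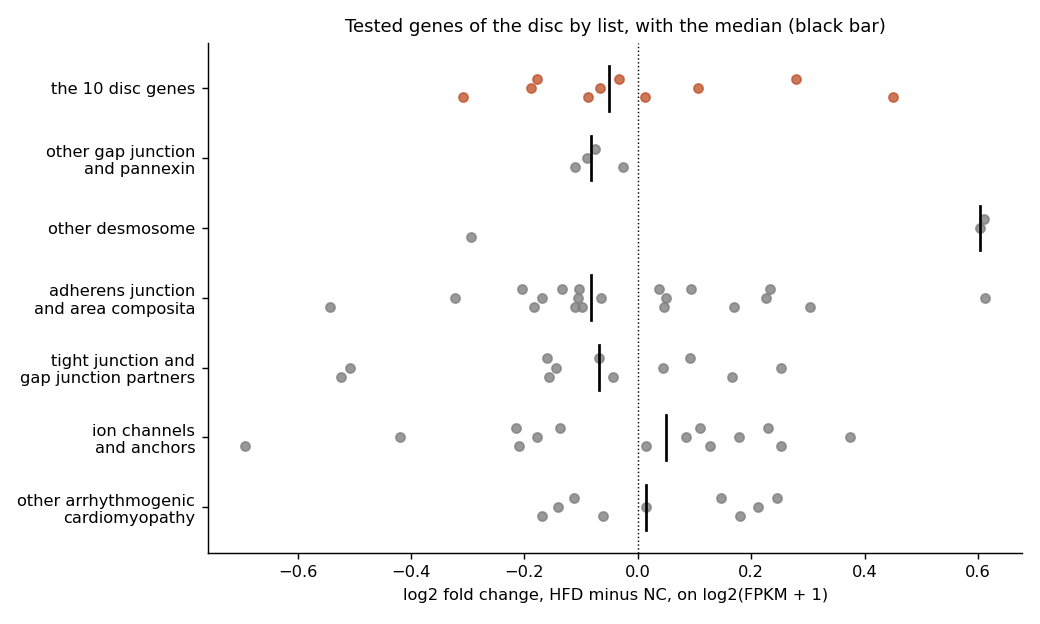
log2 fold changes (HFD minus NC on log2(FPKM + 1)) of the 10 disc genes and of the tested genes of 6 other lists, 1 point per gene, with black bars at the medians. The points of the 10 genes run from −0.31 to 0.45, and the lists lie on both sides of 0.

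Except in Dsg2 and Tjp1, the highest and the lowest library of each of the 10 genes belonged to the same diet. HFD 3 was the highest of the 6 libraries for 6 of the 10 genes and for 34.5% of all tested genes, and HFD 2 was the lowest for 5 of the 10 and for 23.1% of all. Gja1, Dsp, Dsc2, Cdh2 and Ctnna3 were both highest in HFD 3 and lowest in HFD 2, as were 12.0% of all tested genes. This pattern was picked out after the values were seen and gets no test. The ratio of HFD 3 to HFD 2 had a median of 2.16 over the 10 genes, from 0.894 for Dsg2 to 3.14 for Gja5, against a median of 1.17 over all tested genes. After scaling by the median ratio of all genes, Dsp, Dsc2, Cdh2 and Ctnna3 kept that order of libraries, as did 5.27% of all tested genes, and Gja1 no longer did. Relative to the cardiomyocyte markers of each library Dsp, Cdh2 and Ctnna3 kept it, as did 1.71% of all tested genes, and Dsc2 did not. The median log2 difference of HFD 3 minus HFD 2 over the 10 genes was 0.84 as deposited, 0.63 after median ratio scaling and 0.44 relative to the cardiomyocyte markers. Over all tested genes the same medians were 0.188, −0.023 and −0.206, so they fell along with those of the 10 genes. Of the other disc genes 8 of 52 showed it in the values as deposited, among them Ctnna1, Ank2, Bves and Tmem65, and under other scalings between 0 (relative to the cardiomyocyte markers) and 8 of 52 (rescaled to the same sum) did. Ryr2 and Pln of the cardiomyopathy genes showed it as well.

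Jup and Pkp2 had another order, with NC 1 highest and NC 3 lowest, and differed least between libraries, by 1.41 and 1.39 times from lowest to highest. Gja5 differed most, by 4.89 times. On the log2(FPKM + 1) scale the HFD libraries spread more widely than the NC libraries in 5 of the 10 genes (Gja1, Dsp, Dsc2, Cdh2 and Ctnna3), while 62.9% of all tested genes did so. For Dsp the range was 1.29 on HFD and 0.08 on NC. For Tjp1 it was 0.09 on HFD and 0.46 on NC.

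**Figure D5:**
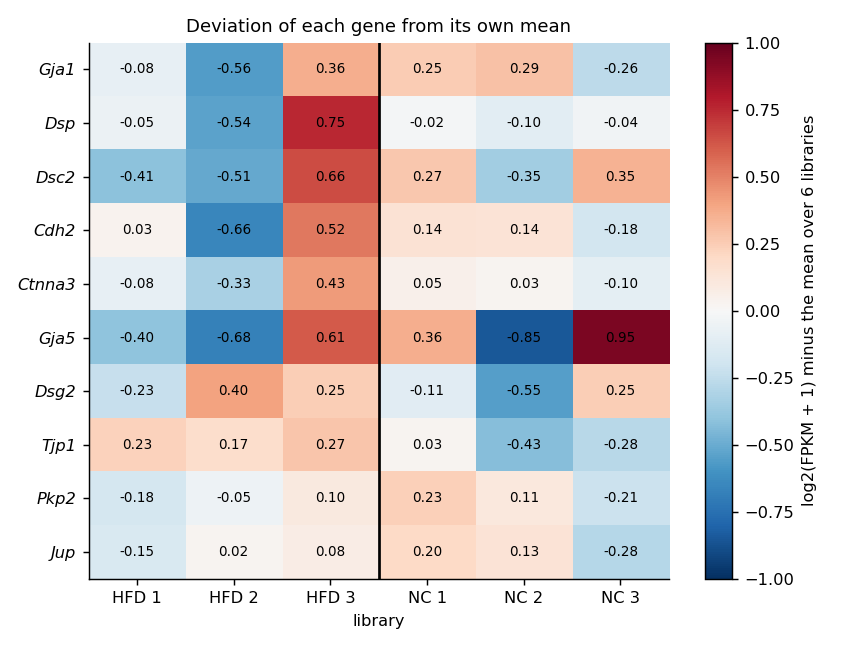
Deviation of log2(FPKM + 1) in each library from the mean of the gene over the 6 libraries, with HFD libraries left of the black line and NC libraries right of it. The top 5 rows are low in HFD 2 and high in HFD 3, Gja5 is high in the libraries numbered 3 of both diets, and Jup and Pkp2 vary least.

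By mean FPKM over the 6 libraries the order of the 10 genes was Gja1 (51.3), Jup (40.5), Dsp (25.9), Pkp2 (17.2), Cdh2 (15.1), Dsg2 and Tjp1 (10.2 each), Dsc2 (6.45), Gja5 (4.47) and Ctnna3 (1.46). The ranges over libraries overlapped between each pair of neighbours in that order. Within a library Dsp was above Pkp2, Tjp1 above Dsc2 and Gja5 above Ctnna3 in 6 of 6 libraries. Gja1 was above Jup in 5 of 6, the exception being HFD 2, and Dsg2 was above Tjp1 in only 2 of 6.

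Ventricular markers, all 8 tested, had a mean log2(FPKM + 1) of 5.83, 5.92 and 6.40 in HFD 1, HFD 2 and HFD 3, against 6.43, 6.48 and 6.11 in NC 1, NC 2 and NC 3. Taken relative to the mean of the cardiomyocyte markers of each library, 7 of the 10 disc genes were above 0 and 3 below, and rescaling each library to the same sum gave the same counts. Rescaling also moved the median log2 fold change of all genes by 0.11, and the cardiomyocyte markers moved it by 0.10. Pkp2, Jup and Cdh2 turned above 0 in both settings, each by about as much as that median. When the sum was taken without the 5 genes at 0 in HFD 1, the median moved by 0.02, 4 of the 10 genes were above 0 and 6 below, and these 3 stayed below 0, at −0.06, −0.004 and −0.04.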

How the data were processed

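Heart mRNA-seq of 6 libraries was analysed, 3 per diet. The authors deposited one table of FPKM values per gene and library; none of the sources used here names their program, annotation or strand setting. The build mm10, HISAT2 2.2.1 and HTSeq 0.13.5 appear in the submitters' processing notes, without roles. Per the labels' protocols, Trizol was used for total RNA and a VAHTS kit for mRNA libraries.

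Symbols were matched by gene identifier for 23718 of 23808 genes. A search for steps of single reads in values below 0.3 FPKM found at most 5.32% of ratios between libraries at one common ratio (tolerance 0.02 on the log2 scale), so reads could not be recovered, no count test was run, and depth is unknown. Values were analysed as log2(FPKM + 1), which understates changes of low genes, for the 11456 genes averaging 1 FPKM or more. The test was limma 3.58.1 in R 4.3.3 (trended eBayes, two-sided, Benjamini-Hochberg over all tested genes). It was also run on simulated data, with an outcome not given here. Relations to the atrial markers used exact two-sided permutation tests. Coordinates and exon overlaps come from GENCODE M21 on mm10, upstream sequences from RefSeq on GRCm38.p6, and figures from matplotlib 3.10.9 in Python 3.11.15.

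The genes and lists were chosen with earlier results of these data known. All 10 disc genes are named, as are the other connexin genes in the table and the 4 genes with the smallest p of each disc list, except some genes that are not reported here; Ctnnb1, Ctnna1 and Tjp3 were named for their relation to the 10 genes, and further genes that share the order of libraries after their values were seen. Alternatives were 2 other pseudocounts, 2 other filters, 5 scalings (1 of them, without the 5 genes at 0 in HFD 1, added after seeing the data), eBayes without trend or robust, a replicate block, an atrial covariate and each library left out.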

Additional observations from a re-analysis of the deposited data

How the results depend on the processing

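None of the 10 genes passed the threshold in any setting; the lowest limma adjusted p was 0.835 (Tjp1, rescaled to the same sum). Tjp1 and Dsg2 kept their sign throughout. Rescaled to the same sum per library, the log2 fold change was 0.038 for Pkp2, 0.095 for Jup and 0.056 for Cdh2, and relative to the cardiomyocyte markers it was 0.015, 0.068 and 0.035; in both settings 7 of the 10 were above 0 and 3 below. Jup was at 0.041 after quantile normalization and Ctnna3 at −0.009 with a pseudocount of 0.1. Leaving out 1 library gave −0.415 to 0.044 for Gja1, −0.81 to 0.087 for Gja5, −0.243 to 0.403 for Dsp, −0.215 to 0.008 for Pkp2, −0.183 to 0.057 for Jup, −0.55 to 0.034 for Dsc2, −0.346 to 0.245 for Cdh2 and −0.197 to 0.179 for Ctnna3. It gave 2 to 7 disc genes above 0 (7 without HFD 2, 2 without HFD 3) and 3 to 8 below. Of the other 52 disc genes, 12 to 29 were above 0 (12 without HFD 3). All HFD libraries lay above all NC libraries in 1 to 2 of the 10 genes and below in 0 to 2. Diets separate more readily by chance with 1 library fewer. The shares of 3.25% and 4.88% of all tested genes, for 3 against 3 libraries, are therefore no measure for these counts.

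With the atrial covariate Gja5 was at −0.037, Dsc2 at −0.014, Cdh2 at −0.006, Dsp at 0.214, Jup at −0.06 and Ctnna3 at 0.063 (limma adjusted p of at least 0.998). Over all genes, 1 passed with that covariate and 0 to 1 without 1 library (1 without NC 2). With the replicate block 73 passed, 22 higher and 51 lower on HFD, none of them among the 10 or the 52 other disc genes. Whether same-numbered libraries belong together was not settled by the check made. Deviations from diet means correlated at 0.193, 0.086 and 0.275 between libraries numbered 1, 2 and 3. Between libraries of different number the correlations ran from −0.361 (HFD 1 with NC 3) to 0.251 (HFD 1 with NC 2). Deviations within a diet sum to 0, so these correlations depend on each other. The rank correlation of Gja5 with the atrial markers was 1 without NC 2 and NC 3 and 0.943 for deviations from diet means (exact permutation p = 0.0833 and 0.0278, the smallest these settings allow, adjusted p = 0.139 in both). That of Pkp2, −0.371 over 6 libraries, was 0.6 and 0.086 in these settings, that of Jup was 0.6 and that of Dsg2 −0.2 without NC 2 and NC 3. The cause was not tested. With 3 libraries per diet, the upper ends of the 95% intervals ran from 0.38 (Pkp2 and Gja1) to 0.92 (Tjp1). The lower ends ran from −1.25 (Gja5) to −0.02 (Tjp1). Even the value of Tjp1, 0.45, could not be told from 0.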
